A study of Mus musculus with 20 samples.

Results

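The intervals described here are stretches of mouse liver RNA that were counted together although they lie over more than 1 mouse gene. The deposited tables give fragment counts for 58395 rows, and each row sums the fragments that fell on one or more intervals of mm10, the mouse genome build. The row definitions came from a human annotation, so the human gene identifiers say nothing about what was counted, and each interval was read instead as a position on mm10 and matched to the exons of mouse genes (GENCODE release M21). Rows were selected on their position and total counts: they were kept when their intervals overlapped exons of 2 to 4 mouse genes and held 50 or more counts over all libraries. Mitochondrial rows, rows in the mouse major histocompatibility region of chromosome 17 and rows over 13 genes set aside by the rule were left out. The rule used no contrast between groups, but it was set with earlier results of these data known. Since the total is over all libraries, a row could also reach the limit through 1 group alone. The rule gave 1865 rows of the 58395, of which 18918 had any count. They held 12.9% of all counts, and 1664 of the 1865 passed the filter on low counts and were tested. Each row is named here by its genes, separated by slashes. Of the 1865 rows, 1234 lay over 2 genes, 458 over 3 and 173 over 4, and together they touched 4170 genes, 2976 of them protein-coding. No base lay over more than 1 gene at once in 1466 of them, so that separate pieces of each row covered separate genes, and 399 held some bases that genes share, 23 of them throughout. A row's count therefore does not tell its genes apart. Counting took no account of strand, and 1249 rows covered genes of both strands, so sense and antisense reads cannot be told apart either.

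The study measured liver RNA from 20 individual mice in 4 groups of 5. Mice received either anti-CD40, an antibody to the receptor CD40, or were controls, and in each case some had antibiotics (ABX) and others did not. Total RNA came from snap-frozen pieces of liver through a trizol extraction and went into standard Illumina libraries. The mouse strain, age and sex, the clone, dose, route and timing of the antibody, what the control mice received, and the antibiotics and their timing are not stated in the labels or files. Since each library came from its own mouse, p-values measure the spread between mice. Values of single mice are given in the order of mouse number, from 6 to 10 for control mice without ABX, 1 to 5 for control mice with ABX, 16 to 20 for anti-CD40 mice without ABX and 11 to 15 for anti-CD40 mice with ABX.

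CD40 is a receptor of the tumour necrosis factor receptor family on B cells, macrophages, dendritic cells and endothelium. Its engagement activates NF-kB, raises costimulation and antigen presentation, and sets off cytokine and interferon signalling. The liver holds hepatocytes, which make most plasma proteins and carry out drug, lipid and amino acid metabolism, beside resident macrophages (Kupffer cells), sinusoidal endothelium, stellate cells and lymphocytes. Hepatocytes are known to lower many metabolic transcripts during inflammation. In mammalian genomes, neighbouring genes often overlap, lie within one another's introns on the other strand, or stand in clusters of close copies, so that a stretch chosen without regard to gene borders can take in pieces of several.

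The counted pieces of 3 rows show how unequally the genes of a row can be covered. The number of bases covered does not give the share of the counts that came from each gene. Capitals mark counted coding bases and lower case marks adjoining bases of the same exon, all from GENCODE M21 transcripts on mm10, written 5′ to 3′ on the gene's strand. The Car2/Car3 row held 182 exon bases of Car2 and 11 of Car3, both genes of cytosolic carbonic anhydrases. The coding piece over Car2 (chr3:14897939-14898069, plus strand) and the whole piece over Car3 (chr3:14864250-14864260, plus strand) are printed because this row had the lowest anti-CD40 fold change of all rows described here.
Car2: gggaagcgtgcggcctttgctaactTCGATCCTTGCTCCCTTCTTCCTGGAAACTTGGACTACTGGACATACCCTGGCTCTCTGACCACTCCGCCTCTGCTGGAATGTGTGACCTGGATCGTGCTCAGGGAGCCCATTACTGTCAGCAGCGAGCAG
Car3: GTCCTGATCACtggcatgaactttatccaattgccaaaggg
The Kctd17/Tmprss6/Il2rb row covered 160 exon bases of Il2rb, the beta chain of the interleukin-2 receptor, beside 661 of Kctd17 and 180 of Tmprss6. Its coding piece over Il2rb lies at chr15:78485732-78485840 on the minus strand.
Il2rb: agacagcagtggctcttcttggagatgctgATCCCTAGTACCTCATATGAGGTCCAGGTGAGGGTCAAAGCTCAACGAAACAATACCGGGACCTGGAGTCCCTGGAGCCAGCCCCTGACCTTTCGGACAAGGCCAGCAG

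The Cyp2c54/Cyp2c50 row was chosen because its genes are close copies. It covered 835 exon bases of Cyp2c54 and 163 of Cyp2c50, which encode cytochrome P450 enzymes of the Cyp2c family, and the piece of Cyp2c50 (chr19:40090221-40090383, plus strand) has a counterpart of the same length in the counted piece of Cyp2c54 (chr19:40072367-40072529, minus strand). The pieces were identical at 157 of 163 bases (96.3%), and the longest run without a difference was 89 bases. Capitals mark the 6 bases that differ.
Cyp2c54: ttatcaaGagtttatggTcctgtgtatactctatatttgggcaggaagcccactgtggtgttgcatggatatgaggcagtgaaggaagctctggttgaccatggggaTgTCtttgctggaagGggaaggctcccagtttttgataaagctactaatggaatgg
Cyp2c50: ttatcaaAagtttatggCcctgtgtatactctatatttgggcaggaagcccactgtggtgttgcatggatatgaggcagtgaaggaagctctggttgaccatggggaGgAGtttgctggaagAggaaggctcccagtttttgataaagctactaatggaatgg
Fragments that fall in the identical run cannot be assigned to either copy, so the split between these genes is uncertain.

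Library totals ranged from 5053014 to 7618736 counts, and were lower in anti-CD40 mice (5053014 to 6211642) than in control mice (6196703 to 7618736, both without and with ABX). The rows over 2 to 4 genes took a mean of 12.9% ± 0.42 (SD, n = 5) of the counts in control mice, 12% ± 0.57 with ABX, 13.7% ± 0.73 in anti-CD40 mice and 13.2% ± 0.44 in anti-CD40 mice with ABX. The labelled tissue was checked with Alb, the albumin gene of hepatocytes, whose row held 14 to 20.2% of the counts in control libraries and 5.91 to 9.82% in anti-CD40 libraries. The well labels put the libraries in 3 plate columns that nearly follow the groups: control mice with ABX and 3 control mice without ABX (6, 7 and 8) in column 3, 2 control mice (9 and 10), all anti-CD40 mice with ABX and anti-CD40 mouse 16 in column 4, and anti-CD40 mice 17 to 20 in column 5. For anti-CD40 against control with ABX no column held both groups, so within the columns the effects cannot be told apart from the plate. Control mouse 8, anti-CD40 mice 14 and 15 with ABX and anti-CD40 mouse 18 without ABX stood apart from their groups in a principal component analysis of all tested rows, mouse 18 as the highest of all mice on the first and the second component. Results that changed without these mice or with the plate column as a term of the model are given as such beside the result. In bulk tissue, fewer cells of a type and less RNA per cell cannot be told apart.

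Anti-CD40 changed the level of many of the tested rows, in both directions. Levels are in CPM, counts relative to a library size scaled by the TMM method, and tests are edgeR's quasi-likelihood F-test with Benjamini-Hochberg adjustment over all 5432 tested rows of the tables, called at an adjusted p under 0.05. Without ABX, 968 of the 1664 rows were called, 507 higher and 461 lower in anti-CD40 mice, beside 57.7% called among all rows tested (29.6% higher, 28.1% lower). The share among the rows over 2 to 4 genes was 58.2%, close to that background. With ABX, 854 were called, 432 higher and 422 lower, beside 50.6% of all rows (25.6% higher, 24.9% lower); the share here was 51.3%. Of the called rows, 341 without ABX and 309 with ABX changed at least 2-fold. The median log2 fold change was 0.05 without ABX and 0.01 with ABX, beside 0.02 and 0.01 over all rows tested. The 2 comparisons use different mice. In both, 360 rows rose and 328 fell, 4 rose in one and fell in the other, 276 were called only without ABX and 162 only with ABX; whether the effects differed was tested for each row and is given with the ABX results. Rows whose pieces were separate were called in 59.9% without ABX and rows with shared bases in 52.1%, with median absolute log2 fold changes of 0.46 and 0.35. The 44 tested rows over no coding gene were called in 50%, with a median absolute log2 fold change of 0.82.

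Scaling to library totals in place of TMM moved the median of all rows to 0.27 without ABX and 0.36 with ABX, and the share of called rows that were higher from 52.4% to 73.4% and from 50.6% to 79.6%. The changes below are log2 fold changes relative to the TMM scale, and the medians of lists are given for the comparison without ABX and then with ABX. Counts of called rows in each list are to be read beside the 57.7% and 50.6% called among all rows tested. With the plate column as a term, 539 rows were called without ABX and 503 with ABX, of which 532 and 489 had also been called without the term. Column 4, the one column with both groups without ABX, held 1 anti-CD40 mouse and 2 control mice, too few for a fit of its own. Without mice 8, 14, 15 and 18 the counts were 936 and 795.

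**Figure D1:**
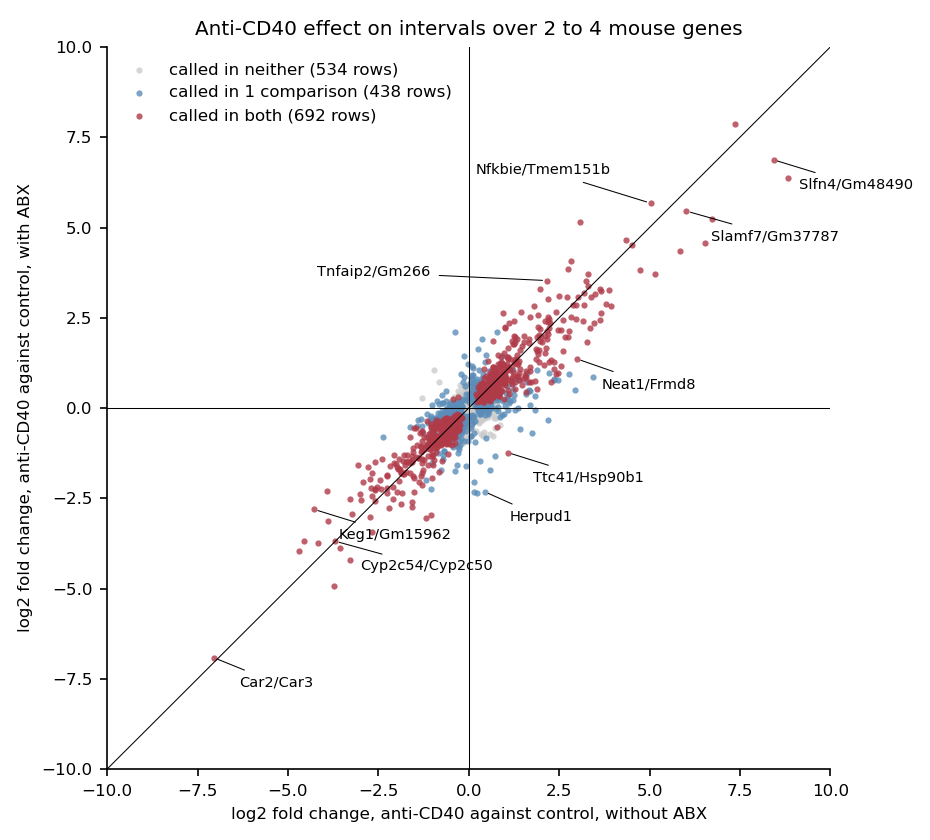
Log2 fold change of anti-CD40 against control without ABX (horizontal axis) and with ABX (vertical axis) for the 1664 tested rows over 2 to 4 mouse genes; each point is 1 row, coloured by the comparisons in which it was called, and the diagonal marks equal effects. The 692 rows called in both include Car2/Car3 at -7.05 and -6.91 near the lower left and Slfn4/Gm48490 at 8.43 and 6.88 near the upper right, while Ttc41/Hsp90b1 and the Herpud1 row lie far below the diagonal.

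Rows over interferon-induced genes rose together. The list of such genes had 17 tested rows, and all 17 rose in anti-CD40 mice both without and with ABX, with median log2 fold changes of 1.95 and 1.78 beside 0.02 and 0.01 over all rows. A model with the plate column as a term called 14 of the 17 higher in each comparison. The largest rise on this list was in the Slfn4/Gm48490 row (chr11:83171818-83187451), which lay over 1106 exon bases of Slfn4, a Schlafen family gene of myeloid cells. It measured 0.835, 2.23, 1.85, 0.744 and 0.336 CPM in control mice without ABX and 0.489, 0.911, 1.31, 0.70 and 1.47 CPM in those with ABX. Its level was 253, 527, 799, 246 and 256 CPM in anti-CD40 mice without ABX and 98.6, 119, 162, 92.8 and 104 CPM in those with ABX. Every anti-CD40 mouse was above every control mouse, and mouse 18, with 799 CPM, was the highest. The log2 fold change was 8.43 ± 0.48 (SE, edgeR adjusted p = 1.04e-10) without ABX and 6.88 ± 0.51 (SE, edgeR adjusted p = 3.47e-09) with ABX.

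Xaf1, an interferon-induced promoter of apoptosis, gave 134 of the bases of the Xaf1/Fbxo39/Smtnl2 row, beside 115 of Fbxo39 and 42 of Smtnl2. The row ranged from 1.68 to 2.69 CPM in control mice and 1.40 to 4.01 CPM in control mice with ABX, and from 22.9 to 30.9 and 19.9 to 29.7 CPM in the anti-CD40 groups. Control and anti-CD40 mice did not overlap, with a log2 fold change of 3.64 ± 0.18 (SE, edgeR adjusted p = 5.03e-15) without ABX. The Eif2ak2/Cebpz row, 2705 of whose 2810 exon bases lay over the gene of the double-stranded-RNA-dependent kinase PKR, had a narrower spread. It lay at chr17:78852977-78922314 and measured 124, 140.5, 125, 128 and 133 CPM in control mice without ABX and 116, 117, 117, 103 and 118 CPM in those with ABX. Levels were 273, 276, 289.7, 278 and 316 CPM in anti-CD40 mice without ABX and 304, 283, 293, 293 and 279 CPM in those with ABX, again with no overlap, and rose by 1.14 ± 0.07 without ABX and 1.35 ± 0.07 with ABX on the log2 scale (edgeR adjusted p = 1.2e-13 and 8.14e-15). The row over Parp12, an interferon-induced ADP-ribosyltransferase, rose by 2.22 ± 0.09 and 2.22 ± 0.09 (edgeR adjusted p = 1.44e-16 and 1.33e-16). Among rows over the PYHIN gene family, whose proteins include cytosolic DNA sensors, Ifi211/Mndal rose by 2.18 ± 0.28 without ABX and Gm7871/Ifi204 by 2.08 ± 0.32 (edgeR adjusted p = 3.05e-06 and 2.94e-05). The Phf11d/Phf11b row rose by 3.48 ± 0.23 and the Olfr549/Trim21 row, over the gene of a cytosolic antibody receptor, by 1.67 ± 0.16 (edgeR adjusted p = 5.09e-11 and 3.47e-09). The smallest rise on the list was in the Ddx58/Aco1 row, at 0.31 ± 0.06 (edgeR adjusted p = 0.00018); Ddx58 encodes the RNA sensor RIG-I.

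Promoters of the genes on this list were searched on both strands for GAAANNGAAA, the core of the interferon-stimulated response element. The RefSeq windows ran from 250 bases before to 50 after each start (build GRCm38.p6). Of the 16 interferon-list genes under the rows, 15 had a window and 9 of these (60.0%) held the motif, beside 86 of 2270 coding genes under all rows over 2 to 4 genes (3.79%) and 1079 of 27025 genes of the table (3.99%). A match is a description of these letters and not evidence of binding. The list holds genes already known to be induced by interferon, some of them neighbours in one family. The share with the motif is therefore not a result of these libraries. Examples with 20 bases on each side are printed on the strand of the gene, with the motif, or its reverse complement, in capitals. That is the minus strand of the genome for all of them but Slfn5. The matches lie at chr1:173942518-173942527 (Ifi203), chr1:173880214-173880223 and chr1:173880003-173880012 (Mndal), chr14:59341371-59341380 (Phf11b), chr11:82951947-82951956 (Slfn5) and chr11:82991866-82991875 (Slfn9).
Ifi203: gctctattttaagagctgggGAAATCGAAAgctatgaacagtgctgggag
Mndal: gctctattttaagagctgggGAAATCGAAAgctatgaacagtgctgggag
Mndal: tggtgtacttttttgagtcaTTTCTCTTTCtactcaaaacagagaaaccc
Phf11b: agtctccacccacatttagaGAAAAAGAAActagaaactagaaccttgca
Slfn5: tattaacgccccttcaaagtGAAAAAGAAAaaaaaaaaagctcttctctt
Slfn9: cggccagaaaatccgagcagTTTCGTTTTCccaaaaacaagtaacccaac
The stretch shown was the same 50 bases in Ifi203 and in the first match of Mndal, neighbouring members of one gene family.

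Of 8 tested rows over CD40, tumour necrosis factor receptor and NF-kB genes, 6 rose in anti-CD40 mice without ABX and none fell, with a median log2 fold change of 1.52. With ABX 6 rose and 1, the Map3k14 row at -0.49 ± 0.10 (edgeR adjusted p = 0.000325), fell; the median was 2.36. With library totals, 7 rose and none fell in each comparison. The Nfkbie/Tmem151b row (chr17:45545804-45563169) lay over 797 exon bases of Nfkbie, an inhibitor of NF-kB that NF-kB itself induces. It measured 2.23, 4.78, 2.02, 4.91 and 1.51 CPM in control mice without ABX and 3.42, 3.28, 1.49, 2.63 and 1.11 CPM in those with ABX. Its level was 123, 77.2, 127, 111 and 73.5 CPM in anti-CD40 mice without ABX and 121, 139.6, 108, 124 and 128 CPM in those with ABX. The groups with and without anti-CD40 did not overlap, and the log2 fold change was 5.03 ± 0.26 (SE, edgeR adjusted p = 2.92e-12) without ABX and 5.68 ± 0.28 (SE, edgeR adjusted p = 1.26e-12) with ABX.

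Tnfaip2, a gene induced by tumour necrosis factor, lay under a pair of rows. Tnfaip2/Gm266 (chr12:111451122-111485823) measured 94.2, 133, 114, 87.5 and 90.3 CPM in control mice without ABX and 38.8, 49.0, 65.5, 45.4 and 80.7 CPM in those with ABX. It had 572, 407, 566, 430.4 and 334 CPM in anti-CD40 mice without ABX and 625, 710.3, 548, 702 and 639.7 CPM in those with ABX. Control mice were lower with ABX than without, and anti-CD40 mice were above all of them, with a log2 fold change of 2.16 ± 0.19 (SE, edgeR adjusted p = 5.85e-09) without ABX and 3.53 ± 0.20 (SE, edgeR adjusted p = 8.91e-12) with ABX. The other row, Tnfaip2/Gm40578/Exoc3l4, had log2 fold changes of 1.97 ± 0.17 and 3.30 ± 0.18 (edgeR adjusted p = 6.48e-09 and 6.08e-12). These rows share a gene and are not independent. The row over Tnfsf9, the ligand of the costimulatory receptor CD137, ranged from 1.18 to 1.68 CPM in control mice, 0.489 to 1.05 with ABX, 9.05 to 19.6 in anti-CD40 mice and 6.17 to 10.3 in anti-CD40 mice with ABX. It rose by 3.31 ± 0.25 (SE, edgeR adjusted p = 2.91e-11) on the log2 scale without ABX. The row over the adhesion molecule genes Icam1 and Icam4 held 1023 exon bases of the mitochondrial ribosomal protein gene Mrpl4, and only 30 and 26 of Icam1 and Icam4. It lay at chr9:21002738-21029398 and measured 106, 115, 115, 99.9 and 106 CPM in control mice without ABX and 98.2, 99.5, 109.9, 100.3 and 92.9 CPM in those with ABX. Its level was 271, 195, 249, 221 and 200 CPM in anti-CD40 mice without ABX and 285, 269.9, 245, 265 and 278 CPM in those with ABX, with no overlap, with a log2 fold change of 1.07 ± 0.08 (SE, edgeR adjusted p = 5.74e-11) without ABX and 1.42 ± 0.09 (SE, edgeR adjusted p = 2.82e-13) with ABX.

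Antigen presentation genes outside the histocompatibility region had 4 tested rows, of which 2 rose in each comparison and none fell (median log2 fold changes 1.26 and 0.42). The 2 called in each are a share near that of all rows tested (57.7% and 50.6%). The Dexi/Ciita row held 111 exon bases of Ciita, the master activator of MHC class II genes, and 152 of Dexi. It lay at chr16:10514885-10528202 and measured 1.25, 0.319, 0.336, 0.447 and 0.504 CPM in control mice without ABX and 1.47, 1.64, 0.933, 0 and 1.47 CPM in those with ABX. Anti-CD40 raised it to 8.96, 7.67, 9.97, 9.49 and 8.58 CPM in anti-CD40 mice without ABX and 12.3, 9.24, 8.003, 11.2 and 13.3 CPM in those with ABX, with a log2 fold change of 3.88 ± 0.36 (SE, edgeR adjusted p = 1.08e-09) without ABX. All anti-CD40 values were above all control values. The March1 row, 2680 of whose bases lay over Tktl2, rose by 2.41 ± 0.30 (SE, edgeR adjusted p = 2.2e-07) on the log2 scale without ABX. With ABX it rose by 0.93 ± 0.31 (SE, edgeR adjusted p = 0.0132), a call that was lost with the plate column as a term (0.57, edgeR adjusted p = 0.532) and without mice 8, 14 and 15.

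Rows over leukocyte genes rose in part. Of 11 tested rows over macrophage and monocyte markers, 6 rose and 2 fell without ABX, and 4 rose and 2 fell with ABX (median log2 fold changes 0.56 and 0.19). Among all rows tested, 57.7% were called without ABX and 50.6% with ABX. All 3 neutrophil marker rows rose in both (median log2 fold changes 2.28 and 0.71). The summed level of the macrophage rows ranged from 88.6 to 117 CPM in control mice, 93.0 to 107 with ABX, 152 to 334 in anti-CD40 mice and 122 to 158 in anti-CD40 mice with ABX. That of the neutrophil rows ranged from 32.6 to 37.1, 28.6 to 37.3, 91.9 to 255 and 53.5 to 81.3 CPM in the same order. No marker row of any list was at 0 in every mouse of a group. The part that such cells play in the other results was not tested. Slamf7, a receptor of activated macrophages, natural killer cells and lymphocytes, lay under Slamf7/Gm37787 (chr1:171635669-171652683). This row (chr1:171635669-171652683) measured 0.418, 0.478, 0.505, 0.744 and 0.336 CPM in control mice without ABX and 0.326, 0.911, 0.933, 0 and 0.737 CPM in those with ABX. Its level was 29.8, 38.0, 39.1, 37.2 and 24.2 CPM in anti-CD40 mice without ABX and 26.4, 27.4, 32.2, 22.2 and 21.1 CPM in those with ABX. Every control value was below every anti-CD40 value, with a log2 fold change of 6.02 ± 0.27 (SE, edgeR adjusted p = 7.95e-16) without ABX and 5.45 ± 0.27 (SE, edgeR adjusted p = 1.02e-14) with ABX. The row held 16 counts in control mice without ABX and 16 in those with ABX. It thus reached the limit of 50 counts only through the anti-CD40 mice. Its separation and calls therefore describe a row that the limit could admit only because it was high there. The row over Clec4d, a C-type lectin of myeloid cells, covered only 63 of its exon bases, beside 340 of Vmn2r22 and 138 of Vmn2r20, vomeronasal receptor genes. It lay at chr6:123265319-123637093 and measured 0.696, 2.07, 2.02, 1.34 and 1.51 CPM in control mice without ABX and 0.978, 0.911, 1.68, 0.70 and 1.47 CPM in those with ABX. In the anti-CD40 groups it had 49.7, 105, 203, 35.8 and 46.3 CPM in anti-CD40 mice without ABX and 32.3, 34.2, 27.5, 12.4 and 12.2 CPM in those with ABX, and mouse 18 was again the highest, with a log2 fold change of 5.85 ± 0.60 (SE, edgeR adjusted p = 2.27e-07) without ABX and 4.35 ± 0.67 (SE, edgeR adjusted p = 3.5e-05) with ABX.

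Has1/Fpr2 covered 1524 exon bases of the hyaluronan synthase gene Has1 and 150 of Fpr2, a formyl peptide receptor of neutrophils. It lay at chr17:17843511-17893810 and measured 1.39, 1.12, 3.53, 1.94 and 1.18 CPM in control mice without ABX and 2.28, 2.004, 1.49, 1.40 and 1.11 CPM in those with ABX. The row had 38.6, 54.5, 92.7, 29.4 and 29.3 CPM in anti-CD40 mice without ABX and 26.3, 33.7, 25.3, 16.7 and 16.8 CPM in those with ABX, without overlap, with a log2 fold change of 4.74 ± 0.39 (SE, edgeR adjusted p = 6.56e-09) without ABX and 3.81 ± 0.42 (SE, edgeR adjusted p = 3.44e-07) with ABX. Mmp9, a neutrophil and macrophage metalloproteinase, lay under the other 2 neutrophil rows. Mmp9/Ctsa/Slc12a5 rose by 2.28 ± 0.27 (SE, edgeR adjusted p = 3.2e-07) without ABX and by 0.71 ± 0.29 (SE, edgeR adjusted p = 0.0422) with ABX, and Mmp9/Zfp335/Zfp335os by 1.29 ± 0.18 (SE, edgeR adjusted p = 2.81e-06) and 0.51 ± 0.19 (SE, edgeR adjusted p = 0.0259). Both calls with ABX were lost with the plate column as a term and on leaving out 1 mouse, such as mouse 11. The Ly6c1/Gm28068 row, over a monocyte and endothelial surface antigen gene, rose by 4.35 ± 0.43 (SE, edgeR adjusted p = 2.95e-09) without ABX and 4.65 ± 0.45 (SE, edgeR adjusted p = 2.19e-09) with ABX. It held 13 counts in control mice without ABX and 10 in those with ABX. The row thus reached the limit on total counts only through the anti-CD40 mice. Its calls therefore describe a row that the limit could admit only because it was high there. The macrophage rows that fell were Trip10/Adgre1, over a macrophage surface receptor gene, at -0.69 ± 0.14, and Gtf2ird2/Ncf1, at -0.44 ± 0.17 without ABX (edgeR adjusted p = 0.000181 and 0.0321).

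Of 7 tested rows over T and natural killer cell markers, 6 rose and 1 fell in both comparisons (median log2 fold changes 1.97 and 2.17). Cd8a/Gm44174, 1292 of whose bases lay over Cd8a, the alpha chain of CD8, measured 0.696, 0.956, 0.673, 0.893 and 1.01 CPM in control mice without ABX and 0.163, 0.911, 0.746, 1.23 and 0.921 CPM in those with ABX. It had 9.78, 9.98, 6.48, 8.72 and 5.93 CPM in anti-CD40 mice without ABX and 4.77, 11.98, 8.79, 11.5 and 8.64 CPM in those with ABX, with no overlap, although mouse 11 was at 4.77 CPM, with a log2 fold change of 3.25 ± 0.31 (SE, edgeR adjusted p = 1.6e-09) without ABX and 3.51 ± 0.32 (SE, edgeR adjusted p = 8.21e-10) with ABX. Cd8a/Gm44174 held 27 counts in control mice without ABX and 22 in those with ABX. It thus reached the limit on total counts only through the anti-CD40 mice. Its separation and calls therefore describe a row that the limit could admit only because it was high there. Rows over the natural killer receptor genes Klre1, Klrd1 and Klrk1 (1.93 ± 0.22 without ABX) and over the T cell receptor constant gene Trbc2 (1.97 ± 0.31) also rose (edgeR adjusted p = 2.86e-08 and 7.17e-06). The Ms4a4b/BE692007 row, counted on both the T cell and the macrophage list, rose by 2.54 ± 0.28 (SE, edgeR adjusted p = 2.71e-08). The row that fell was Kctd17/Tmprss6/Il2rb, described below beside Il2rb alone. Of 4 B and plasma cell rows, 2 rose in each comparison (median log2 fold changes 0.95 and 1.44). That share is near the share called among all rows tested (57.7% and 50.6%). Ms4a1/Ms4a12, over the gene of the B cell antigen CD20, rose by 1.52 ± 0.27 (SE, edgeR adjusted p = 2.44e-05) without ABX and 1.98 ± 0.26 (SE, edgeR adjusted p = 5.65e-07) with ABX, and Ighg2b/Gm37944, over an immunoglobulin constant gene, by 1.62 ± 0.46 without ABX (edgeR adjusted p = 0.0039), where its value with ABX was 0.96 ± 0.52 (edgeR adjusted p = 0.124). Iglc1/Iglj1, over a light chain gene, rose by 1.92 ± 0.38 with ABX (edgeR adjusted p = 0.000141) and was at 0.38 ± 0.33 without (edgeR adjusted p = 0.337). Of 14 rows over proliferation genes, 6 rose and 2 fell without ABX, and 7 rose and 1 fell with ABX (median log2 fold changes 0.57 and 0.45). The 8 called in each comparison are a share near that of all rows tested (57.7% and 50.6%). The shorter of a pair of rows over Mki67, the Ki-67 gene, rose by 1.86 ± 0.23 (SE, edgeR adjusted p = 1.56e-07) without ABX, while Tk1/Afmid, over thymidine kinase and a hepatic kynurenine pathway gene, fell by 1.45 ± 0.15 (edgeR adjusted p = 5.77e-08).

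**Figure D2:**
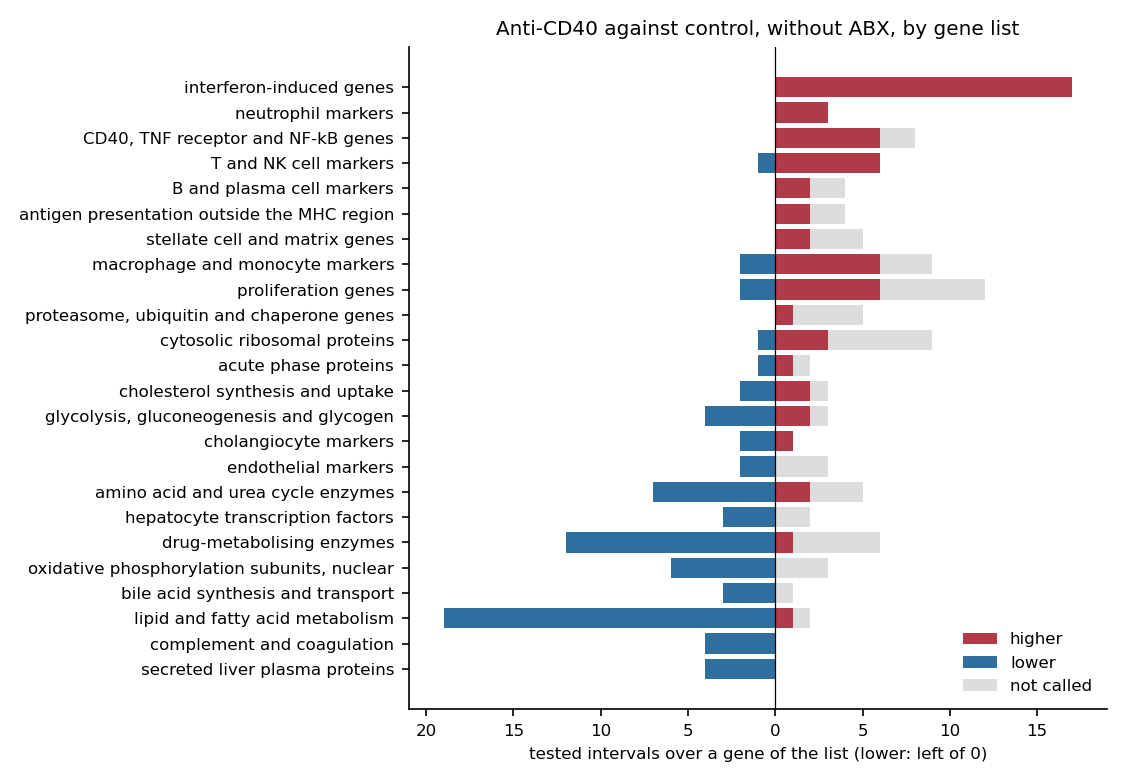
Number of tested rows over a gene of each list (lists with 3 or more tested rows) that were called higher (right, red), called lower (left, blue) or not called (grey) in anti-CD40 mice against control mice without ABX. All 17 interferon rows are on the higher side, and 19 of 21 lipid rows and 12 of 18 drug-metabolising rows on the lower side.

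A pair of rows over noncoding RNA genes was nearly without counts in control mice. Both reached the limit of 50 counts only through the anti-CD40 mice. Their ratios and calls therefore describe rows that the limit could admit only because they were high there. The 4921528I07Rik/Gm29825 row (chr9:114167689-114311237) had 1 count in the 5 control libraries without ABX and 736 in the anti-CD40 libraries, a ratio of 717 on equal library totals (95% interval 128 to 28373, counting error only). Its anti-CD40 mice without ABX measured 5.38, 6.14, 79.6, 9.49 and 17.8 CPM, so that mouse 18 carried most of these counts. With ABX there were 51 counts against 0, at least 15.6-fold higher on a floor of 3 counts over the group. The Gm48428/Gm33782 row (chr10:96344526-96358899) had 279 counts against 1 without ABX, a ratio of 272 (95% interval 48.4 to 10779). With ABX it had 143 against 0, at least 43.7-fold higher. Its levels were 7.33, 8.44, 9.47, 12.4 and 4.68 CPM in anti-CD40 mice without ABX and 3.31, 6.33, 5.81, 4.91 and 2.93 CPM in those with ABX, and each of the 10 anti-CD40 mice was above each control mouse. edgeR called both rows in both comparisons, but the call for 4921528I07Rik/Gm29825 with ABX was lost on leaving out 1 mouse, such as mouse 11. With the plate column as a term that row was called in neither comparison and Gm48428/Gm33782 only without ABX.

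Among the tested rows over 2 to 4 genes, Car2/Car3 had the lowest log2 fold change in both comparisons. It lay at chr3:14864250-14900453 and measured 2507, 2315, 395, 2502 and 2292 CPM in control mice without ABX and 2595, 2057, 1735, 1974 and 1723 CPM in those with ABX. In anti-CD40 mice it was down to 15.97, 13.2, 21.3, 12.4 and 12.9 CPM in anti-CD40 mice without ABX and 17.4, 16.3, 13.8, 13.5 and 22.5 CPM in those with ABX. Control mouse 8 was far below the other control mice but still above every anti-CD40 mouse. The log2 fold change was -7.05 ± 0.44 (SE, edgeR adjusted p = 3.72e-10) without ABX and -6.91 ± 0.44 (SE, edgeR adjusted p = 5.25e-10) with ABX. This row was the only tested one over an erythroid marker gene (Car2) and over a muscle and adipose marker gene (Car3), so neither list can be read from it.

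Of 18 tested rows over drug-metabolising enzymes, 12 fell and 1 rose without ABX, and 12 fell and 2 rose with ABX, with median log2 fold changes of -1.53 and -1.34. The Cyp2c54/Cyp2c50 row (chr19:40070168-40090383) measured 1163, 1063, 967, 1485 and 1233 CPM in control mice without ABX and 2202, 2158, 2158, 2340.1 and 1899.8 CPM in those with ABX. Its level was 116, 74.4, 96.4, 82.0 and 88.3 CPM in anti-CD40 mice without ABX and 156, 195, 134, 156 and 194 CPM in those with ABX. Anti-CD40 mice lay below all control mice, with a log2 fold change of -3.69 ± 0.13 (SE, edgeR adjusted p = 2.7e-17) without ABX and -3.69 ± 0.13 (SE, edgeR adjusted p = 1.71e-17) with ABX, and within each antibody group the mice with ABX were all above those without. The 4-gene row around Adh1, the liver alcohol dehydrogenase, held 111 bases of Adh1 and 3 of Adh7, beside an antisense gene with 223 bases. It lay at chr3:138188389-138290639 and measured 1256, 1187, 1367, 1508 and 1287 CPM in control mice without ABX and 1321, 1424, 1381, 1736 and 1481 CPM in those with ABX. Anti-CD40 mice had 72.2, 68.4, 121, 70.7 and 110.0 CPM in anti-CD40 mice without ABX and 180.1, 186, 111, 189 and 173 CPM in those with ABX, without overlap, with a log2 fold change of -3.90 ± 0.17 (SE, edgeR adjusted p = 2.73e-14) and -3.13 ± 0.17 (SE, edgeR adjusted p = 7.23e-13). The short row over Ugt2b38, a glucuronosyltransferase gene, and the pseudogene Gm21049 ranged from 32.02 to 70.3 CPM in control mice and from 1.47 to 2.76 CPM in anti-CD40 mice without ABX; with ABX the ranges were 38.6 to 73.4 and 1.71 to 5.34. Its log2 fold change was -4.69 ± 0.31 (SE, edgeR adjusted p = 1.18e-10) without ABX. The Cyp2f2/Gm15883 row fell from 1352 to 2617 CPM in control mice, the lowest of them mouse 8, to 553 to 808 CPM, with a log2 fold change of -1.69 ± 0.14 (SE, edgeR adjusted p = 4.69e-10). Rows over Cyp3a59 (-2.72 ± 0.24), Cyp2d12 (-2.59 ± 0.19) and Cyp2d10 and Cyp2d11 (-1.36 ± 0.09) fell too without ABX (edgeR adjusted p = 3.62e-10, 5.58e-10 and 1.58e-12). Many of these genes have close copies, so the split between them is uncertain. The row that rose in both comparisons was Dppa5c/Gsta1, over a glutathione transferase gene, at 3.09 ± 0.54 without ABX and 5.15 ± 0.78 with ABX (edgeR adjusted p = 5.51e-05 and 1.21e-05). Gstm4/Ampd2 rose with ABX (0.92 ± 0.14, edgeR adjusted p = 1.25e-05).

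**Figure D3:**
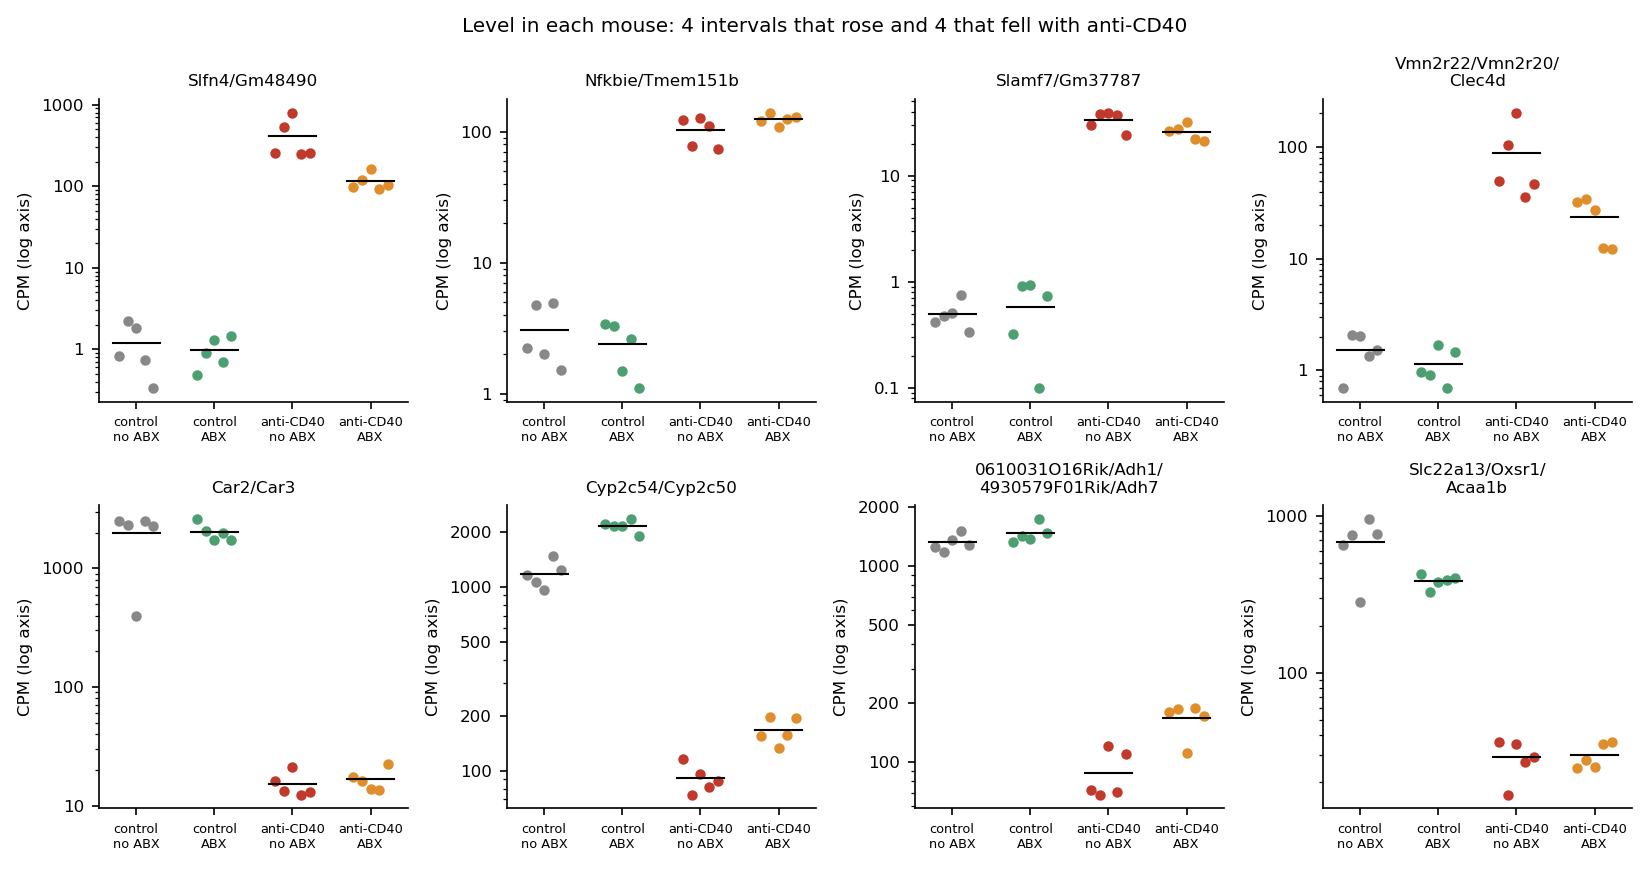
CPM in each mouse (points, log axis) of 4 rows that rose and 4 that fell with anti-CD40, in the 4 groups of 5 mice; horizontal bars are group means, and the value of 0 in Slamf7/Gm37787 (control mouse 4 with ABX) is drawn at 0.1. In every panel the anti-CD40 mice are separated from the control mice, and control mouse 8 is the low point of Car2/Car3 at 395 CPM.

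Lipid and fatty acid metabolism had the most tested rows of any list, 21: 19 fell and 1 rose without ABX (median log2 fold change -1.09), and 20 fell and 1 rose with ABX (median -0.997). The row that rose, Fitm1/Psme1/Dcaf11/Carmil3, also lay over the interferon-induced proteasome activator gene Psme1. With library totals 19 and 15 fell. The row over Acaa1b, a peroxisomal thiolase gene, covered 43 of its bases beside 223 of the transporter gene Slc22a13 and 106 of the kinase gene Oxsr1. It lay at chr9:119153670-119238760 and measured 649, 753, 282, 954 and 763 CPM in control mice without ABX and 424, 329.7, 380.2, 391 and 405 CPM in those with ABX. It had 36.3, 16.8, 35.4, 27.1 and 29.02 CPM in anti-CD40 mice without ABX and 24.6, 27.9, 24.95, 34.95 and 36.3 CPM in those with ABX, so that anti-CD40 mice were all below control mice, with a log2 fold change of -4.56 ± 0.28 (SE, edgeR adjusted p = 2.08e-10) and -3.70 ± 0.28 (SE, edgeR adjusted p = 2.82e-09). Myo5b/Acaa2/Dym, over the mitochondrial thiolase gene Acaa2 among others, fell, with log2 fold changes of -2.27 ± 0.12 and -2.37 ± 0.12 (edgeR adjusted p = 1.45e-14 and 9.61e-15). Rows over the fatty acid elongase genes Elovl2 (-2.69 ± 0.14 without ABX) and Elovl6 (-1.15 ± 0.15), the desaturase gene Scd3 (-3.05 ± 0.36), the lipoprotein assembly gene Mttp (-1.08 ± 0.07), the nuclear receptor gene Ppara (-1.27 ± 0.13) and the sterol response factor gene Srebf1 (-1.04 ± 0.13) fell, with edgeR adjusted p-values of 1.26e-13, 4.2e-07, 1.31e-06, 3.6e-12, 6.48e-09 and 5.22e-07. The row over Keg1, a glycine N-acyltransferase-like gene on no list, measured 646, 379, 442, 604 and 549 CPM in control mice without ABX and 592, 612, 545, 445 and 576 CPM in those with ABX. Its level was 26.1, 23.8, 22.6, 41.2 and 21.2 CPM in anti-CD40 mice without ABX and 78.0, 81.8, 57.3, 91.2 and 87.5 CPM in those with ABX, with a log2 fold change of -4.28 ± 0.19 (SE, edgeR adjusted p = 1.29e-13) without ABX and -2.81 ± 0.18 (SE, edgeR adjusted p = 4.16e-11) with ABX, with the mice given ABX all higher than the other anti-CD40 mice.

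Rows over secreted plasma proteins fell, 4 of 4 tested in both comparisons (median log2 fold changes -1.73 and -1.65), and 4 of 4 complement and coagulation rows fell without ABX and 3 with ABX (median log2 fold changes -0.64 and -0.52). The Serpina1b/Gm17043/Serpina1d row, over alpha-1-antitrypsin genes that are close copies, measured 2130.1, 2002, 2237, 2158 and 2148 CPM in control mice without ABX and 2688, 2831, 2674, 2719.5 and 2413 CPM in those with ABX. It had 757, 608, 771, 729.5 and 698 CPM in anti-CD40 mice without ABX and 909, 1052, 909.5, 920.5 and 972 CPM in those with ABX, and no group overlapped with another, with a log2 fold change of -1.58 ± 0.08 (SE, edgeR adjusted p = 4.29e-15) without ABX and -1.48 ± 0.08 (SE, edgeR adjusted p = 1.87e-14) with ABX. Gm12336/Serpinf1 fell by 1.87 ± 0.10 and Gm43449/Afm, over the afamin gene, fell by 2.69 ± 0.35 without ABX (edgeR adjusted p = 1.91e-14 and 4.97e-06). The fall of Smok3a/Gjc3/Azgp1, at -0.46 ± 0.08 without ABX and -0.33 ± 0.08 with ABX (edgeR adjusted p = 3.04e-05 and 0.00154), was not called with the plate column as a term, and with library totals its value with ABX was 0.02. Among complement and coagulation rows, Masp1/Gm45338 fell by 0.83 ± 0.08 and Ercc3/Proc, over the protein C gene, fell by 0.84 ± 0.08 without ABX (edgeR adjusted p = 1.07e-09 and 2.72e-09). Of 3 acute phase rows (median log2 fold changes -0.08 and -1.60), Best1/Fth1/Rab3il1, over the ferritin heavy chain gene, rose by 1.91 ± 0.27 without ABX (edgeR adjusted p = 1.09e-06) and Serpina3h/Serpina3k fell by 1.55 ± 0.17 (edgeR adjusted p = 1.05e-07). The row over the hepcidin gene Hamp2 and over Mag was at -0.08 ± 0.30 (SE, edgeR adjusted p = 0.834) without ABX and fell by 1.60 ± 0.31 with ABX (edgeR adjusted p = 0.000374). Serpina5/Serpina4-ps1, over the protein C inhibitor gene, varied widely between control mice: it measured 1567, 222, 1210.1, 938 and 1676 CPM in control mice without ABX and 595, 256, 254, 84.2 and 168 CPM in those with ABX. Its level was 79.7, 122, 53.0, 87.6 and 131 CPM in anti-CD40 mice without ABX and 14.9, 18.3, 25.7, 14.1 and 19.7 CPM in those with ABX, with a log2 fold change of -3.57 ± 0.54 (SE, edgeR adjusted p = 2.32e-05) without ABX and -3.87 ± 0.57 (SE, edgeR adjusted p = 2.17e-05) with ABX, without overlap in either, and with mouse 7 well below the other control mice without ABX.

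Of 12 rows over amino acid and urea cycle enzymes (median log2 fold changes -0.87 and -1.10), 7 fell and 2 rose without ABX, and 10 fell and 1 rose with ABX. Sardh/Sardhos, over the mitochondrial sarcosine dehydrogenase gene, fell, with log2 fold changes of -2.27 ± 0.10 and -1.85 ± 0.10 (edgeR adjusted p = 4.95e-16 and 2.13e-14), and Iffo2/Aldh4a1/Gm21969 fell by 1.31 ± 0.07 without ABX (edgeR adjusted p = 7.58e-14). Gm29163/Bckdhb, over a branched-chain ketoacid dehydrogenase subunit gene, rose by 0.65 ± 0.08 (edgeR adjusted p = 3.17e-07). Of 4 bile acid rows (median log2 fold changes -0.64 and -0.40) 3 fell in each comparison. Slco2b1/Gm15635 fell by 0.81 ± 0.10 without ABX (edgeR adjusted p = 6.15e-08) and Dnmbp/Abcc2, over an organic anion exporter gene, fell by 0.55 ± 0.11 (edgeR adjusted p = 0.000144). With library totals none of the 4 was called with ABX, and Dnmbp/Abcc2 stood at 0.02. Of 7 rows over glucose and glycogen metabolism (median log2 fold changes -0.68 and -0.61), 2 rose and 4 fell without ABX, and 2 rose and 5 fell with ABX. Cox14/Gm16537/Gpd1, over glycerol-3-phosphate dehydrogenase, fell by 1.69 ± 0.08, Golt1b/Recql/Gys2, over liver glycogen synthase, fell by 1.13 ± 0.12, and Ermap/Slc2a1, over the glucose transporter gene Slc2a1, rose by 2.47 ± 0.25 without ABX (edgeR adjusted p = 4.29e-15, 6.96e-09 and 1.03e-07). Of 9 rows over nuclear genes of oxidative phosphorylation, 6 fell without ABX, 7 fell with ABX and none rose (median log2 fold changes -0.45 and -0.70). Ndufs1/Gpr1/Zdbf2 fell by 0.93 ± 0.10 and Atp5g3/Gm10822/Atf2 fell by 0.80 ± 0.09 without ABX (edgeR adjusted p = 1.15e-08 and 5.31e-08).

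Of 5 rows over hepatocyte transcription factors, 3 fell without ABX and 2 with ABX (median log2 fold changes -0.74 and -0.37). These counts stand beside 57.7% and 50.6% called among all rows tested. The row over Cebpa, a factor of hepatocyte differentiation, held 267 bases of it and 732 of the noncoding gene Gm35611, and measured 1035, 878, 1159.8, 1027 and 1064 CPM in control mice without ABX and 824, 701, 640.1, 687 and 769.5 CPM in those with ABX. Its level was 473, 437, 347, 499.8 and 586 CPM in anti-CD40 mice without ABX and 502, 587, 494, 626 and 597 CPM in those with ABX. Control and anti-CD40 mice did not overlap, with a log2 fold change of -1.14 ± 0.11 (SE, edgeR adjusted p = 2.7e-09) without ABX and -0.37 ± 0.11 (SE, edgeR adjusted p = 0.00677) with ABX, but the call with ABX was lost with the plate column as a term and with library totals. Foxa1/Gm37291 fell, with log2 fold changes of -1.82 ± 0.24 and -1.45 ± 0.23 (edgeR adjusted p = 1.87e-06 and 2.8e-05). Of 5 endothelial marker rows (median log2 fold changes -0.03 and -0.58), the pair over Stab2, a scavenger receptor of liver sinusoidal endothelium, fell in both comparisons and the other 3 were not called. Stab2/Gm16270 (chr10:86843501-86927912) measured 46.1, 51.3, 66.8, 41.8 and 54.9 CPM in control mice without ABX and 45.3, 69.0, 61.2, 65.1 and 61.2 CPM in those with ABX. It had 19.9, 15.99, 17.5, 17.8 and 13.6 CPM in anti-CD40 mice without ABX and 20.02, 22.2, 14.9, 12.6 and 17.1 CPM in those with ABX, without overlap, with a log2 fold change of -1.62 ± 0.15 (SE, edgeR adjusted p = 1.07e-09) without ABX and -1.80 ± 0.15 (SE, edgeR adjusted p = 2.14e-10) with ABX. Gm16269/Stab2, 8 bases of which lay over Stab2, fell, with log2 fold changes of -3.29 ± 0.43 and -4.21 ± 0.47 (edgeR adjusted p = 3.95e-07 and 2.66e-08).

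The remaining lists moved little or in both directions. Of 5 stellate cell and matrix rows (median log2 fold changes 0.22 and -0.995), 2 rose without ABX, and 2 rose and 2 fell with ABX: Zfp300/Timp1/Zfp182, over the metalloproteinase inhibitor gene Timp1, rose by 1.69 ± 0.26 (SE, edgeR adjusted p = 7.92e-06) without ABX, and Col3a1/Gm38211 fell by 1.71 ± 0.52 with ABX (edgeR adjusted p = 0.0108), a call lost without mice 8, 14 and 15 or with the plate term. Of 3 cholangiocyte rows (median log2 fold changes -0.38 and -0.54) 2 fell and 1, Gm42793/Spp1, rose without ABX (1.05 ± 0.32, edgeR adjusted p = 0.00961), and 2 fell with ABX. Of 5 cholesterol rows (median log2 fold changes -0.23 and -0.28) 2 rose and 2 fell without ABX, and 1 rose and 2 fell with ABX. With library totals none fell. Nadsyn1/Dhcr7, over a sterol reductase gene, rose in both, by 0.53 ± 0.11 without ABX (edgeR adjusted p = 0.00022). Of 2 clock rows (median log2 fold changes -0.35 and -0.26), Rassf8/Bhlhe41 fell in both (-1.06 ± 0.10 without ABX, edgeR adjusted p = 2.16e-09) and the Npas2 row rose without ABX (0.36 ± 0.09, edgeR adjusted p = 0.00184). Of 10 cytosolic ribosomal protein rows (median log2 fold changes 0.20 and -0.01), 3 rose and 1 fell without ABX, and 1 rose with ABX. With library totals 6 and 7 rose, and with the plate column as a term none was called. Of 5 proteasome, ubiquitin and chaperone rows (median log2 fold changes 0.44 and 0.16), 1 rose without ABX, and 1 rose and 2 fell with ABX; those over Hsp90b1 and Herpud1 are described next.

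Fewer rows differed with ABX. In control mice 98 of 1664 were called, 46 higher and 52 lower with ABX, beside 5.71% of all rows tested (3.04% higher, 2.67% lower), and 16 of them changed at least 2-fold. The share here was 5.89%. In the mice of plate column 3 alone, 5 with ABX and 3 without, 21 rows were called. With the plate column as a term 43 were called, 41 of them among the 98, and the share that was higher moved from 46.9% to 32.6%; with library totals it was 9.85%. The count fell to 65 without mouse 2, to 59 without mouse 5, to 65 without mouse 6 and to 57 without mouse 10. Herpud1, a gene of the unfolded protein response, lay under the Herpud1 row with 475 exon bases, beside 1497 and 441 of noncoding genes. It lay at chr8:94378180-94432656 and measured 14.9, 11.3, 8.24, 9.97 and 10.9 CPM in control mice without ABX and 19.6, 47.7, 38.1, 74.2 and 44.8 CPM in those with ABX. Its level was 15.2, 16.5, 11.3, 16.7 and 15.4 CPM in anti-CD40 mice without ABX and 6.43, 7.87, 12.6, 7.05 and 10.8 CPM in those with ABX. The control mice with ABX were above every other mouse, and the log2 fold change of ABX in control mice was 2.01 ± 0.26 (SE, edgeR adjusted p = 0.000322). It was 1.95 (edgeR adjusted p = 0.00831) with the plate column as a term. The row over Hsp90b1, the chaperone of the endoplasmic reticulum, and Ttc41 measured 14.3, 15.5, 9.08, 7.29 and 8.56 CPM in control mice without ABX and 18.9, 27.3, 38.4, 43.1 and 37.8 CPM in those with ABX. It had 25.3, 19.8, 27.6, 24.8 and 18.6 CPM in anti-CD40 mice without ABX and 11.8, 10.1, 19.9, 15.02 and 13.3 CPM in those with ABX. The control mice with ABX were above those without, by 1.59 ± 0.24 (SE, edgeR adjusted p = 0.00064), and the anti-CD40 groups overlapped. With the plate term the ABX effect in control mice was 1.35 (edgeR adjusted p = 0.0107).

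The row over Neat1, the noncoding RNA that scaffolds paraspeckles, covered 1964 of its bases nearer its start and 238 of Frmd8. It lay at chr19:5842888-5851474 and measured 403, 283, 261, 240.3 and 345 CPM in control mice without ABX and 895, 514, 633, 578 and 778 CPM in those with ABX. Its level was 2699.9, 2951, 2264, 2089 and 2204 CPM in anti-CD40 mice without ABX and 1152, 1969, 2170.5, 1922 and 1516 CPM in those with ABX. Control mice were higher with ABX by 1.15 ± 0.18 (SE, edgeR adjusted p = 0.00127), or 1.11 with the plate term (edgeR adjusted p = 0.0167), and every anti-CD40 mouse was above every control mouse. Rows that fell with ABX in control mice included Scara5/Pnoc, over a ferritin receptor gene, which measured 22.4, 30.3, 64.9, 21.3 and 38.8 CPM in control mice without ABX and 10.8, 16.4, 13.1, 5.95 and 9.95 CPM in those with ABX. In anti-CD40 mice it stood at 53.6, 78.9, 59.0, 75.2 and 76.4 CPM in anti-CD40 mice without ABX and 65.6, 57.8, 88.2, 63.8 and 70.4 CPM in those with ABX. The control groups did not overlap. The ABX effect was -1.66 ± 0.30 (SE, edgeR adjusted p = 0.00412) in control mice and 0.01 ± 0.26 in anti-CD40 mice (edgeR adjusted p = 0.986). In control mice it was -1.80 with edgeR adjusted p = 0.0114 with the plate column as a term. Tox/Gm11802, over a transcription factor gene of T cells, ranged from 10.2 to 14.97 CPM in control mice and from 2.40 to 7.09 CPM with ABX, a difference of -1.48 ± 0.23 (SE, edgeR adjusted p = 0.00064). The Tnfaip2 rows were lower with ABX in control mice, Tnfaip2/Gm266 at -0.89 ± 0.19 and Tnfaip2/Gm40578/Exoc3l4 at -0.80 ± 0.18 (edgeR adjusted p = 0.00816 and 0.0119). Cyp2c54/Cyp2c50 was higher by 0.86 ± 0.12 and Golt1b/Recql/Gys2 by 0.61 ± 0.11 (edgeR adjusted p = 0.000212 and 0.00216). These calls held with the plate column as a term. The calls for Serpina1b/Gm17043/Serpina1d (0.32 ± 0.08), Gm8941/C730036E19Rik (-0.49 ± 0.12) and Serpina5/Serpina4-ps1 (-2.05 ± 0.50) did not hold (edgeR adjusted p = 0.0538, 0.0974 and 0.107 with the term). In the mice of column 3 alone Cyp2c54/Cyp2c50 and Tox/Gm11802 were called, and the other rows named here for ABX in control mice, the Herpud1, Hsp90b1, Neat1 and Scara5 rows among them, were not, with the signs of their fold changes kept.

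In anti-CD40 mice 250 of 1664 rows were called with ABX against no ABX, 127 higher and 123 lower, beside 14% of all rows tested (7.75% higher, 6.22% lower), and 51 changed at least 2-fold. The share here was 15%. With the plate column as a term 8 were called, 7 of them among the 250. Column 4 held the 5 mice with ABX and only mouse 16 of those without. The count was 158 without mouse 14, 165 without mouse 18, 123 without mice 8, 14 and 15 and 77 without these and mouse 18. Several metabolic rows that fell with anti-CD40 were higher with ABX among the anti-CD40 mice. Keg1/Gm15962 was higher by 1.55 ± 0.18 (SE, edgeR adjusted p = 1.5e-05), and Gm30132/Ces1g, over a carboxylesterase gene, by 1.57 ± 0.19 (SE, edgeR adjusted p = 3.24e-05). Gm30132/Ces1g (chr8:93302925-93420880) measured 194, 183, 131, 210.2 and 175 CPM in control mice without ABX and 219.8, 254, 225, 256 and 229 CPM in those with ABX. Its level was 35.2, 18.8, 25.8, 22.3 and 26.8 CPM in anti-CD40 mice without ABX and 69.6, 90.5, 42.4, 81.4 and 97.4 CPM in those with ABX, with all anti-CD40 mice below the controls and those with ABX above those without. Cyp2c54/Cyp2c50 was higher by 0.87 ± 0.12 and Sardh/Sardhos by 0.51 ± 0.09 (edgeR adjusted p = 4.3e-05 and 0.000726). Gm49038/Gm8518/Rnase10/Ang, over the angiogenin gene among others, rose with anti-CD40, with a log2 fold change of 0.99 ± 0.27 (SE, edgeR adjusted p = 0.00389) without ABX and 2.25 ± 0.26 (SE, edgeR adjusted p = 5.74e-07) with ABX, and in anti-CD40 mice it was higher with ABX by 1.37 ± 0.25 (SE, edgeR adjusted p = 0.00104). Lower with ABX in anti-CD40 mice were Mmp9/Zfp335/Zfp335os at -0.99 ± 0.18, 1810043G02Rik/Pfkl/Trpm2 at -0.88 ± 0.12, and the Clec4d row at -1.90 ± 0.43 (edgeR adjusted p = 0.000785, 1.98e-05 and 0.00708). The Pfkl row held 953 exon bases of 1810043G02Rik, 304 of the phosphofructokinase gene Pfkl and 121 of Trpm2. Trpm2 alone had a mean of 11.7 CPM in anti-CD40 mice without ABX and 6.59 CPM in those with ABX. The call for the Clec4d row was lost without mice 8, 14 and 15. None of the rows over 2 to 4 genes named here was called with the plate column as a term.

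The difference between the anti-CD40 effect with ABX and that without was called for 126 of 1664 rows, 67 positive and 59 negative, beside 6.81% of all rows tested (3.85% positive, 2.96% negative), and 40 were at least 2-fold. The share here was 7.57%. Without mouse 14 the count was 81, without mouse 18 it was 88, without mice 8, 14 and 15 it was 65, and without these and mouse 18 it was 49. With the plate column as a term 1 row was called, Coq8b/Gm15567, so for the other rows the difference was not called once plate column was in the model. Coq8b/Gm15567 lay outside the naming rule and was chosen after its values were seen. The Herpud1 row had the effect 0.44 ± 0.27 without ABX and -2.32 ± 0.27 with ABX, a difference of -2.75 ± 0.39 (SE, edgeR adjusted p = 0.000458). For the Hsp90b1 row the effects were 1.08 ± 0.24 and -1.23 ± 0.23, of opposite sign, with a difference of -2.31 ± 0.33 (SE, edgeR adjusted p = 0.000458); its effect with ABX was not called with the plate column as a term (edgeR adjusted p = 0.382). The other 3 rows with opposite calls, chosen after their values were seen, were Pdzd4/Gm14817/Gm23615 (0.78 without ABX and -0.52 with ABX), Wiz/Gm26858 (-0.28 and 0.29) and Mgea5/Kcnip2 (-0.44 and 0.26). The Neat1 row rose less with ABX (1.36 ± 0.18) than without (2.99 ± 0.19), a difference of -1.63 ± 0.26 (SE, edgeR adjusted p = 0.00126), while Tnfaip2/Gm266 rose more, by 1.38 ± 0.26 (SE, edgeR adjusted p = 0.00355), and Scara5/Pnoc by 1.67 ± 0.39 (SE, edgeR adjusted p = 0.018). Cyp17a1/AC156982.1, over a steroidogenic cytochrome P450 gene, measured 4.04, 11.5, 9.42, 8.63 and 8.56 CPM in control mice without ABX and 6.196, 7.65, 11.9, 22.9 and 11.2 CPM in those with ABX. Its level was 24.3, 21.5, 37.7, 30 and 27.8 CPM in anti-CD40 mice without ABX and 8.45, 5.48, 11.8, 4.14 and 7.25 CPM in those with ABX. The anti-CD40 mice without ABX were above all other mice except control mouse 4, which was above mouse 17 (difference of the effects -2.44 ± 0.47 (SE, edgeR adjusted p = 0.00421)). Ccn2/Gm15270, over the connective tissue growth factor gene, measured 21.3, 18.2, 31.1, 21.6 and 26.2 CPM in control mice without ABX and 53.0, 40.8, 36.6, 30.8 and 28.7 CPM in those with ABX. It had 27.5, 45.0, 42.9, 10.4 and 11.5 CPM in anti-CD40 mice without ABX and 11.02, 11.8, 6.43, 3.07 and 5.40 CPM in those with ABX, lowest in anti-CD40 mice 14 and 15 with ABX, and its difference of -2.57 ± 0.57 (SE, edgeR adjusted p = 0.0128) was lost without mice 8, 14 and 15. Among rows that fell, Keg1/Gm15962 (1.47 ± 0.25), Gm8941/C730036E19Rik (1.62 ± 0.19) and Gm30132/Ces1g (1.16 ± 0.26) fell less with ABX (edgeR adjusted p = 0.0018, 3.3e-05 and 0.0121). Without mice 8, 14, 15 and 18 the differences of Scara5/Pnoc, Cyp17a1/AC156982.1 and Gm30132/Ces1g were not called either.

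**Figure D4:**
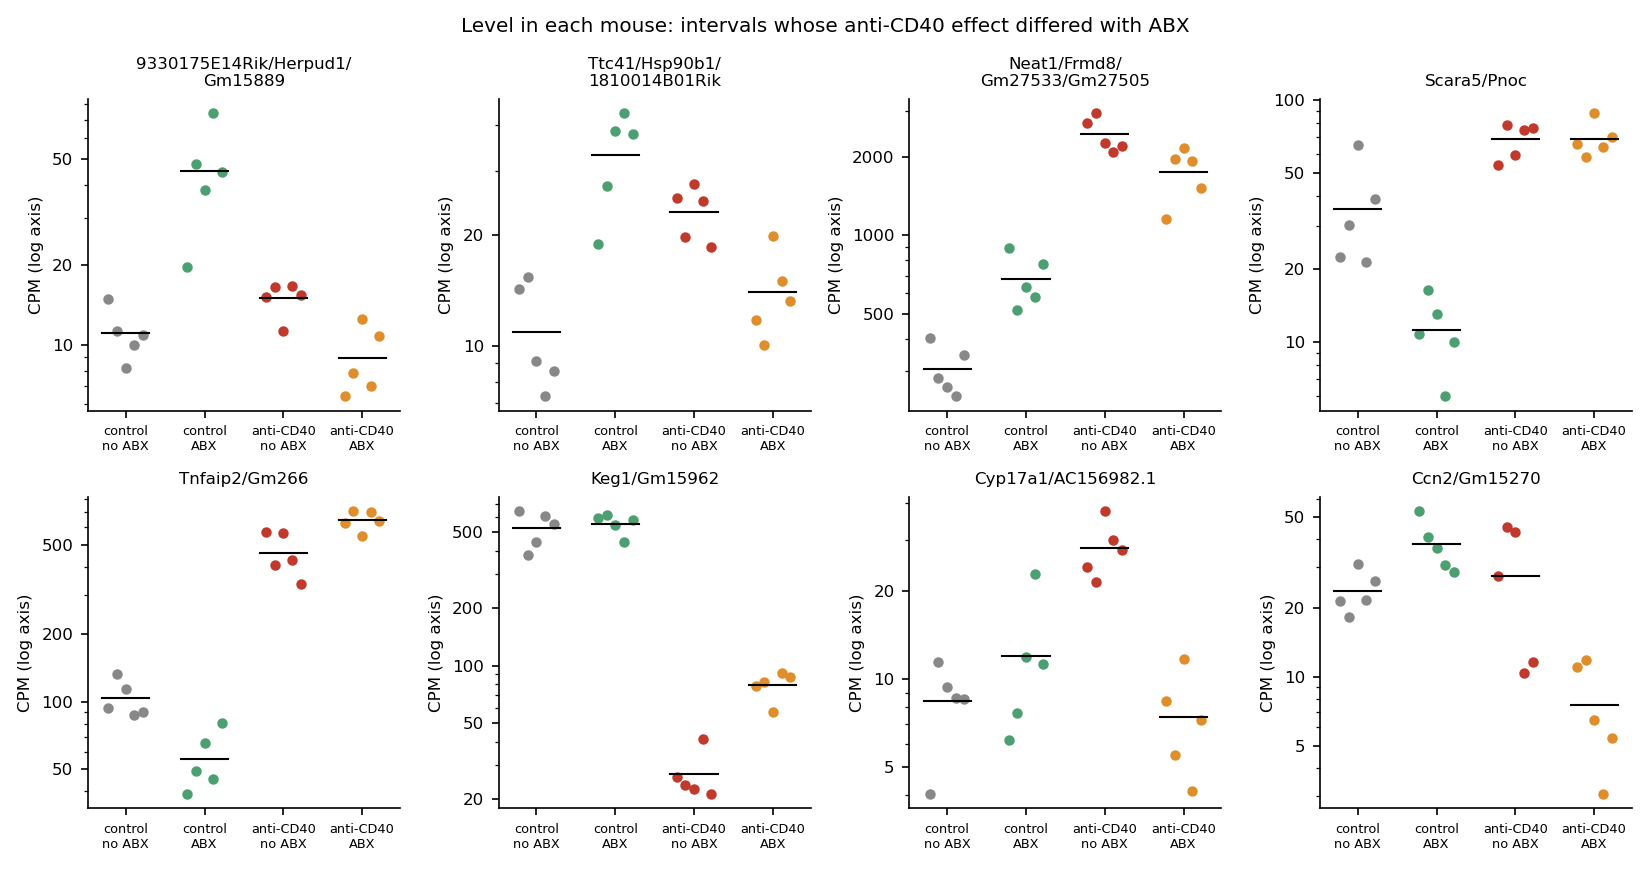
CPM in each mouse (points, log axis) of 8 rows whose anti-CD40 effect differed between mice with and without ABX, in the 4 groups of 5 mice; horizontal bars are group means. In the Herpud1 panel the control mice with ABX, at 19.6 to 74.2 CPM, lie above all other mice, and in the Keg1 panel the anti-CD40 mice with ABX, at 57.3 to 91.2 CPM, lie between the other anti-CD40 mice and the controls.

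How far a row over several genes follows each of them could be seen where another row covered 50 or more exon bases of 1 of the genes alone. There were 548 such pairs, in 501 rows. Across the pairs, the log2 fold changes of the row and of the gene alone had a Pearson correlation of 0.589 for anti-CD40 without ABX and 0.666 with ABX. For ABX it was 0.328 in control mice and 0.469 in anti-CD40 mice. These are descriptions across rows of the same libraries, in which one gene can serve several pairs. For the gene with the most bases in its row the correlation without ABX was 0.683 (272 pairs), and for a gene with fewer it was 0.487 (276 pairs). Of 223 pairs in which both were called without ABX, 194 had the same direction, and of 186 with ABX, 170. In 46 rows with 2 or more genes measured alone, the fold change of the row lay between those of its genes in 22, and in 23 the genes differed in sign.

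The Kctd17/Tmprss6/Il2rb row (chr15:78437431-78488230) measured 486, 479.9, 433, 509.6 and 506 CPM in control mice without ABX and 486, 493, 493, 469 and 469 CPM in those with ABX. Its level was 248, 205, 237, 214 and 261 CPM in anti-CD40 mice without ABX and 264, 269.5, 257, 258 and 256 CPM in those with ABX. It fell, without overlap, with log2 fold changes of -1.05 ± 0.07 without ABX and -0.89 ± 0.07 with ABX (edgeR adjusted p = 2.67e-12 and 8.78e-11), while a row over 325 other bases of Il2rb alone rose by 2.56 ± 0.16 and 2.19 ± 0.16 (edgeR adjusted p = 4.99e-13 and 7.45e-12). Il2rb alone had 4.04, 5.10, 4.88, 4.76 and 4.87 CPM in control mice and 27.1, 31.3, 24.9, 30 and 26.2 CPM in anti-CD40 mice without ABX. The shared row therefore moved against one of its genes, and the other genes of the row, Kctd17 and the hepcidin-regulating protease gene Tmprss6, were not measured alone. Nop56/Idh3b, named after its values were seen, lay over a nucleolar ribonucleoprotein gene and an isocitrate dehydrogenase subunit gene whose ends overlap by 5 bases. It lay at chr2:130278757-130279726 and measured 246, 251, 176, 287 and 255 CPM in control mice without ABX and 259, 259, 258, 265 and 269 CPM in those with ABX. It had 172, 142, 174, 171 and 189.6 CPM in anti-CD40 mice without ABX and 153, 178, 149, 149 and 176 CPM in those with ABX, with overlap without ABX, with a log2 fold change of -0.52 ± 0.10 (SE, edgeR adjusted p = 7.18e-05) without ABX and -0.70 ± 0.10 (SE, edgeR adjusted p = 1.29e-06) with ABX. Alone, Nop56 rose by 0.72 ± 0.10 and Idh3b fell by 0.88 ± 0.09 without ABX (edgeR adjusted p = 1.2e-06 and 6.79e-09), so that the row lay between them.

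In other rows the genes measured alone changed less than the row, or the other way. Myo5b and Dym alone were at -0.15 ± 0.17 and 0.51 ± 0.30 (edgeR adjusted p = 0.458 and 0.149), beside -2.27 for Myo5b/Acaa2/Dym; Acaa2 was not measured alone. A row over 4349 bases of Neat1 farther from its start fell by 1.13 ± 0.34 without ABX and Frmd8 alone rose by 0.38 ± 0.12 (edgeR adjusted p = 0.00586 and 0.00873), beside a rise of 2.99 in the Neat1 row. Neat1 alone had a mean of only 4.10 CPM, beside 1293 CPM for the shared row. It ranged from 3.20 to 12.6 CPM in control mice and from 1.40 to 4.89 CPM in anti-CD40 mice without ABX. With ABX its change was -0.08 ± 0.38 (edgeR adjusted p = 0.876). Ugt2b38 alone fell by 1.66 ± 0.48 (edgeR adjusted p = 0.00662), less than the shared row. Nfkbie alone rose by 4.60 ± 0.18 and Cyp2c50 alone fell by 3.65 ± 0.11 (edgeR adjusted p = 1.78e-16 and 8.96e-19), each near the value of its shared row. Stab2 lay under 5 tested rows, and its log2 fold change without ABX ranged from -3.70 to -0.91 between them. Tor1aip2/Tor1aip1, of whose 1481 bases 699 are shared by both genes, was at 0.12 ± 0.07 (SE, edgeR adjusted p = 0.161) without ABX, while Tor1aip2 alone rose by 0.21 ± 0.08 and Tor1aip1 alone by 0.31 ± 0.08 (edgeR adjusted p = 0.0235 and 0.00108). With library totals the shared row was called higher as well (0.37).

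**Figure D5:**
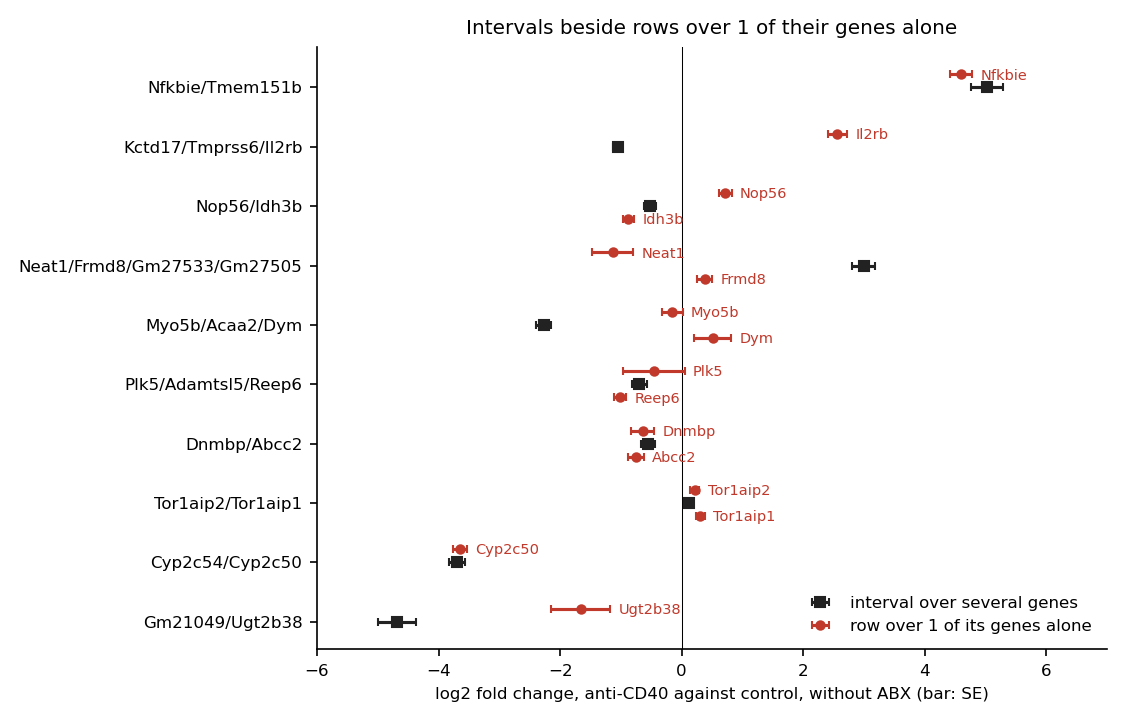
Log2 fold change of anti-CD40 against control without ABX (horizontal axis, bars are SE) of 10 rows over several genes (squares) and of the rows over 1 of their genes alone (circles, named). Il2rb alone lies at 2.56 while its shared row lies at -1.05, and the square of Myo5b/Acaa2/Dym lies far to the left of its circles.

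The limit of 50 counts divided rows of like level. The members with exactly 50 counts were Gm9268/Gm9294, Gm13262/4930412O13Rik/Gata3 and Gm29649/Gm5828, and the highest row left out was Cacna1g/Epn3/Spata20 with 49. Of rows over 2 to 4 genes, 460 fell under the limit. Requiring 50 exon bases of each gene kept 1700 rows, of which 898 of 1529 tested were called without ABX, and requiring 500 counts kept 1389, of which 859 were called.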

How the data were processed

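RNA counts from 20 mouse livers, 1 library per mouse, were analysed. The submitters' processing notes name Trimmomatic 0.38, HISAT2 2.1.0 and the build mm10. The authors counted read pairs with featureCounts 1.5.0-p2 over exons grouped by gene identifier, per the file headers, without strand or multi-overlap options, using a human annotation (GRCh38, Ensembl release 93). The deposited values are whole-number counts per row, not normalized. The 3576 rows on human chromosomes 20 to 22, which the mouse lacks, held 0 counts. Intervals were intersected with the exons of 55450 GENCODE M21 genes in bedtools 2.31.1.

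All 5432 rows that passed filterByExpr were fitted together in edgeR 4.0.16 (R 4.3.3; TMM, robust quasi-likelihood, a mean per group), which was tested on simulated data. The biological coefficient of variation was 16.3%. Depth was 5053014 to 7618736 counts, and counting intervals (95%) and floors (3 counts) cover counting error only. The highest correlation between 2 libraries was 0.985, and no library was a copy of another.

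Rows named are the 10 with the highest mean level, the 8 called rows with the largest change in each direction for each anti-CD40 comparison and 5 for each other comparison (mean of at least 1 CPM), up to 3 rows per gene list by smallest p, those nearest the count limit, and 6 with 2 or more genes measured alone; 119 rows met the rule, and 70 were examined in full, with others chosen after their values were seen where stated; 1 further row is not reported here. The members and the 27 gene lists were chosen with earlier results of these data known. Alternatives were DESeq2 1.42.0, its size factors, library totals, no filter, no mitochondrial rows, plate column as a term, only the 2 groups compared, and leaving out each mouse, with mice 8, 14 and 15 together, these with mouse 18, and the mice of plate column 3 alone added after seeing the data.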

Additional observations from a re-analysis of the deposited data

Results flagged for a closer look

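In the rows examined in full, 280 groups of 5 mice were searched for a mouse whose gap to the nearest other mouse was large for the range of its group, and 26 such values were found. Chance gives about 1 in 20 groups, and the mice given most often were control mouse 8 (5 rows) and control mice 4 and 9 (3 each). Mouse 1 of the control mice with ABX stood apart from the other 4 with 45.3 CPM in Stab2/Gm16270 (others 61.2 to 69.0) and 92.0 CPM in Foxa1/Gm37291 (others 35.4 to 46.6). Mouse 2 of the control mice with ABX stood apart from the other 4 with 73.4 CPM in Gm21049/Ugt2b38 (others 38.6 to 44.5). Mouse 4 of the control mice with ABX stood apart from the other 4 with 103 CPM in Eif2ak2/Cebpz (others 116 to 118), 0 CPM in Dexi/Ciita (others 0.933 to 1.64) and 9.28 CPM in Gm16269/Stab2 (others 7.17 to 7.47). Mouse 6 of the control mice without ABX stood apart from the other 4 with 1.25 CPM in Dexi/Ciita (others 0.319 to 0.504) and 4.04 CPM in Cyp17a1/AC156982.1 (others 8.56 to 11.5). Mouse 7 of the control mice without ABX stood apart from the other 4 with 222 CPM in Serpina5/Serpina4-ps1 (others 938 to 1676) and 5.89 CPM in the shorter Mki67/Ptpre row (others 2.52 to 3.13). Mouse 8 of the control mice without ABX stood apart from the other 4 with 1352 CPM in Cyp2f2/Gm15883 (others 2258 to 2617), 395 CPM in Car2/Car3 (others 2292 to 2507), 47.6 CPM in Gm36041/Gm48877 (others 103 to 117), 477 CPM in Dnmbp/Abcc2 (others 617 to 669) and 314 CPM in Tor1aip2/Tor1aip1 (others 277 to 286). Mouse 9 of the control mice without ABX stood apart from the other 4 with 0.149 CPM in 4921528I07Rik/Gm29825 (others 0 in each), 0.149 CPM in Gm48428/Gm33782 (others 0 in each) and 121 CPM in Apbb1/Smpd1 (others 42.7 to 55.0). Its values in 4921528I07Rik/Gm29825 and Gm48428/Gm33782 were 1 count each. Mouse 11 of the anti-CD40 mice with ABX stood apart from the other 4 with 27.4 CPM in Mag/Hamp2/Gm44662 (others 43.4 to 52.2) and 12.1 CPM in the shorter Mki67/Ptpre row (others 10.7 to 10.98). Mouse 12 of the anti-CD40 mice with ABX stood apart from the other 4 with 129 CPM in Masp1/Gm45338 (others 148 to 152). Mouse 13 of the anti-CD40 mice with ABX stood apart from the other 4 with 111 CPM in 0610031O16Rik/Adh1/4930579F01Rik/Adh7 (others 173 to 189). Mouse 14 of the anti-CD40 mice with ABX stood apart from the other 4 with 424 CPM in Tnfaip2/Gm40578/Exoc3l4 (others 332 to 355). Mouse 17 of the anti-CD40 mice without ABX stood apart from the other 4 with 202 CPM in Ercc3/Proc (others 255 to 276) and 179 CPM in Atp5g3/Gm10822/Atf2 (others 239 to 265). Mouse 18 of the anti-CD40 mice without ABX stood apart from the other 4 with 11.3 CPM in 9330175E14Rik/Herpud1/Gm15889 (others 15.2 to 16.7).

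The anti-CD40 effect differed between mice with and without ABX in 20 of these rows, as the ABX effect minus the effect without on the log2 scale (edgeR, Benjamini-Hochberg adjusted p under 0.05). None of the 20 differences was called with the plate column as a term. The difference was positive in Tnfaip2/Gm266 (1.38), Tnfaip2/Gm40578/Exoc3l4 (1.33), 0610031O16Rik/Adh1/4930579F01Rik/Adh7 (0.77), Keg1/Gm15962 (1.47), Gm8941/C730036E19Rik (1.62), Gm35611/Cebpa/Gm45091 (0.77), Scara5/Pnoc (1.67), Tox/Gm11802 (1.11), Gm30132/Ces1g (1.16) and Tor1aip2/Tor1aip1 (0.42). It was negative in Tktl2/Tma16/March1/Gm32568 (-1.48), Mmp9/Ctsa/Slc12a5 (-1.57), 1810043G02Rik/Pfkl/Trpm2 (-0.82), Mag/Hamp2/Gm44662 (-1.51), Mrpl52/Mmp14 (-0.42), 9330175E14Rik/Herpud1/Gm15889 (-2.75), Ttc41/Hsp90b1/1810014B01Rik (-2.31), Neat1/Frmd8/Gm27533/Gm27505 (-1.63), Ccn2/Gm15270 (-2.57) and Cyp17a1/AC156982.1 (-2.44). Those of Tktl2/Tma16/March1/Gm32568, Mag/Hamp2/Gm44662 and 0610031O16Rik/Adh1/4930579F01Rik/Adh7 were among those also lost on leaving out 1 mouse, such as mouse 14.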

How the results depend on the processing

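With the plate column as a term, anti-CD40 was called in 539 rows without ABX and in 503 with ABX, in place of 968 and 854; 1 for the difference of the effects in place of 126; 43 for ABX in control mice in place of 98; and 8 for ABX in anti-CD40 mice in place of 250. The cause was not tested, and the term leaves few mice per column and group. Leaving out mice 8, 14 and 15 gave 65 rows for the difference of the effects and 123 for ABX in anti-CD40 mice, and with mouse 18 left out too 49 and 77. The mice of plate column 3 alone gave 21 for ABX in control mice, from fewer mice. Leaving out 1 mouse gave 924 to 966 and 808 to 840 rows for anti-CD40, 81 to 150 for the difference, 57 to 97 for ABX in control mice and 158 to 250 for ABX in anti-CD40 mice. The other settings kept all 5 counts within 1.5 times.

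Of 198 single fold changes, 128 kept their direction and side of the threshold with the plate column as a term and 70 lost their call. With DESeq2 all 198 kept both, and with library totals 184 did. With library totals the sign turned for Smok3a/Gjc3/Azgp1 (0.0168) and Dnmbp/Abcc2 (0.0198) with ABX and for Mag/Hamp2/Gm44662 without ABX (0.16). The last was not called, and its sign also turned without mouse 9 (0.11) and without mouse 20 (0.0144), in a range from -0.22 without mouse 6 to 0.11. Of 2180 fold changes with 1 mouse left out, 2019 kept direction and call. Library totals moved the share of called rows that were higher from 53.2% to 76.1% for the difference and from 50.8% to 35% for ABX in anti-CD40 mice; the latter was 63.4% without mice 8, 14 and 15 and 62.5% with the plate term, and the former 0% with that term. No paired analysis was possible because no 2 groups share a mouse number. Depth limits rows of few counts, of which 201 were not tested.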

Other observations

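Apbb1/Smpd1 (chr7:105555222-105567677), over an adaptor protein gene and the acid sphingomyelinase gene, varied between single mice. It lay at chr7:105555222-105567677 and measured 46.5, 42.7, 55.0, 121 and 51.0 CPM in control mice without ABX and 44.7, 47.2, 44.4, 35.02 and 39.6 CPM in those with ABX. Its level was 44.8, 38.5, 49.9, 63.5 and 47.7 CPM in anti-CD40 mice without ABX and 426, 59.6, 309.6, 57.3 and 54.5 CPM in those with ABX, high in mice 11 and 13, with control mouse 9 above the other control mice. A row over 1283 other bases of Apbb1 alone had 0.557, 1.12, 2.35, 0.298 and 1.68 CPM in control mice without ABX and 1.14, 0.364, 0.373, 0.525 and 0.737 CPM in those with ABX. In anti-CD40 mice it had 11.9, 8.82, 18.8, 13.8 and 379 CPM without ABX and 379, 344, 529.8, 67.0 and 13.9 CPM with ABX, so the mice that were high in it were 20, 11, 12, 13 and 14, and mice 20, 12 and 14 were not high in the shared row.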
